A study of Arabidopsis thaliana with 6 samples.

Results

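The 36 probe sets described here were higher after estradiol (EST) than after mock treatment in Arabidopsis seedlings at 4 h, but not at 3 h and not in detached leaves at 6 h. They were selected on measured values, as all the probe sets of the Affymetrix ATH1 array, out of 22746 other than controls, with an EST minus mock difference of at least 1 on the log2 scale at 4 h, below 0.5 at 3 h and between -0.6 and 0.6 in leaves. GRF9-IOE plants carry the coding sequence of the transcription factor gene GRF9 in an EST-inducible vector, and all 6 samples, mock included, came from such plants. The study asked which genes respond within hours when GRF9 is induced. Seedlings aged 2 weeks and grown on MS plates received 10 µM EST for 3 h or 4 h, or 0.1% ethanol as mock. Leaves were detached from soil-grown plants aged 40 days and received the same treatments for 6 h. The study's methods state a younger age for these plants and a slightly higher ethanol concentration than the labels do. There was 1 array for each of the 6 conditions, so no condition has a replicate, and an EST effect cannot be told apart from the difference between 2 single samples. The number of transgenic lines is not given in the sources used here, and no plants without the GRF9 transgene were on the arrays, so GRF9 and the inducer cannot be told apart.

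Growth-regulating factors are plant transcription factors that bind DNA and, with partner proteins, set how long cells of young organs go on dividing. In the inducible system a chimeric activator stays inactive until EST binds it, and then switches on the transgene. Direct targets can respond first, and genes downstream of those targets follow later. Whole seedlings also change with time of day and handling, which mock plants harvested at the same hour are meant to account for.

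The deposited unit is the log2 signal after the authors' GCRMA normalization. Each array had the same lowest value, 2.149, and 35.22% to 36.05% of the probe sets on each array lay within 0.5 of it, where a decrease can hardly be seen. Array medians lay between 5.157 and 5.334, and the seedling arrays correlated with each other at 0.995 to 0.997. The array annotation paired 20 of the 36 probe sets with exactly 1 gene, and each of these loci is found in TAIR10.1. The other 16 are not in its list. These 16 are given by their probe set numbers, and those outside the 5 largest 4 h differences were picked for mention after their values were seen. The annotation names functions for none of the loci and has a gene symbol for only 1, LTI30, so the roles below are general knowledge of the loci. No probe set was removed for low signal.

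At 4 h, 163 of the 22746 probe sets (0.717%) were at least 1 higher after EST. Of these, 118 were also at least 0.5 higher at 3 h, 9 were below 0.5 at 3 h but moved by more than 0.6 in leaves, and the remaining 36 (0.158% of all) are the members. Since the rule used the 3 EST minus mock differences, these are descriptions without a test. The members' 4 h differences ran from 1.003 to 2.72 with a median of 1.31. Only 12 reached 1.5 and 2 reached 2. Their 3 h differences ran from -1.90 to 0.47 with a median of 0.07, and their leaf differences from -0.56 to 0.47 with a median of -0.01. Over all probe sets each of the 3 medians was 0. The same rule with all signs turned, for probe sets lower at 4 h only, found 30. For 26 of these the mock signal at 4 h was at least 0.5 above that at 3 h, against 4.60% of all probe sets. For 16 the EST signal was at least 0.5 below. Both counts follow in part from the turned rule, which used the same arrays.

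**Figure D1:**
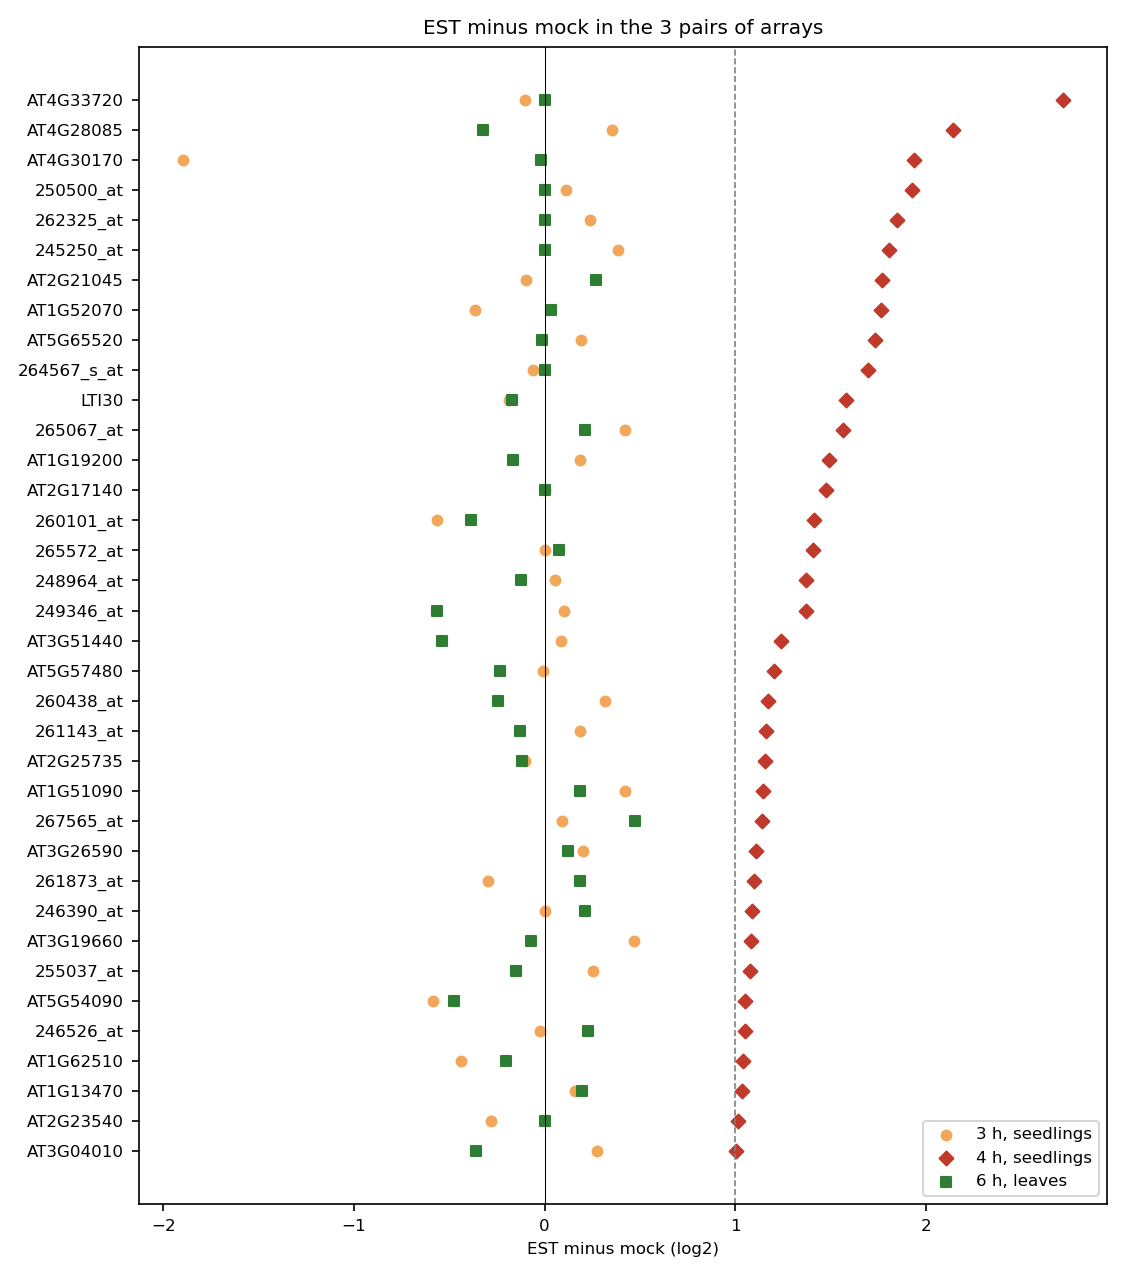
EST minus mock difference (log2, horizontal axis) of the 36 probe sets in seedlings at 3 h (circles), seedlings at 4 h (diamonds) and leaves at 6 h (squares), ordered by the 4 h difference; the dashed line marks the 4 h threshold of 1. The 4 h values run from 1.003 to 2.72, and AT4G30170 alone lies far below 0 at 3 h, at -1.90.

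The thresholds cut through a continuous range. Just inside the 4 h threshold were AT3G04010 (1.003), AT2G23540 (1.02) and AT1G13470 (1.04), and just outside it 266860_at (0.998), AT1G09740 (0.99) and 249408_at (0.98). At 3 h the closest members were AT3G19660 (0.47), 265067_at (0.42) and AT1G51090 (0.42), against 0.51 for AT1G55265, 0.52 for 252906_at and 0.56 for 259925_at just outside. In leaves 249346_at (-0.56), AT3G51440 (-0.54) and 267565_at (0.47) were the closest inside, against -0.61 for AT4G09420, -0.63 for AT3G56060 and -0.63 for AT1G05575 just outside.

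A larger difference between EST and mock at 4 h than at 3 h can come from the EST array, from the mock array or from both. From 3 h to 4 h, the EST signal was higher by at least 0.5 for 31 of the 36 members, against 3.85% of all probe sets. The mock signal was lower by at least 0.5 for 8 members, against 2.24% of all, and higher by at least 0.5 for 2, against 4.60%. Both shares follow in part from the selection, which used the EST and the mock array of 4 h. For 24 members the EST signal was higher and the mock signal stayed within 0.5, and for 5 both moved. For 3 members the mock was lower without a higher EST signal. For 2 members, AT3G19660 and 255037_at, neither step reached 0.5, and for the remaining 2 both signals were higher at 4 h. The median step was 1.06 for EST and -0.11 for mock. Among the 11 members with a mean signal of at least 6, EST was higher for 6 and mock lower for 5. The EST array of 4 h was the highest of the 4 seedling arrays for 34 members, against 22.8% of all probe sets, and it stood at least 1 above each of the other seedling arrays for 18. The mock array of 4 h was the lowest of the 4 for 17, against 11.1% of all. Measured against the mock array of 3 h instead, 21 of the members were at least 1 higher in EST seedlings at 4 h (1.49% of all probe sets), 15 were less than 1 higher, and 2 of these 15 were lower. These ranks and shares, too, follow in large part from the selection, which set EST of 4 h at least 1 above mock of 4 h.

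**Figure D2:**
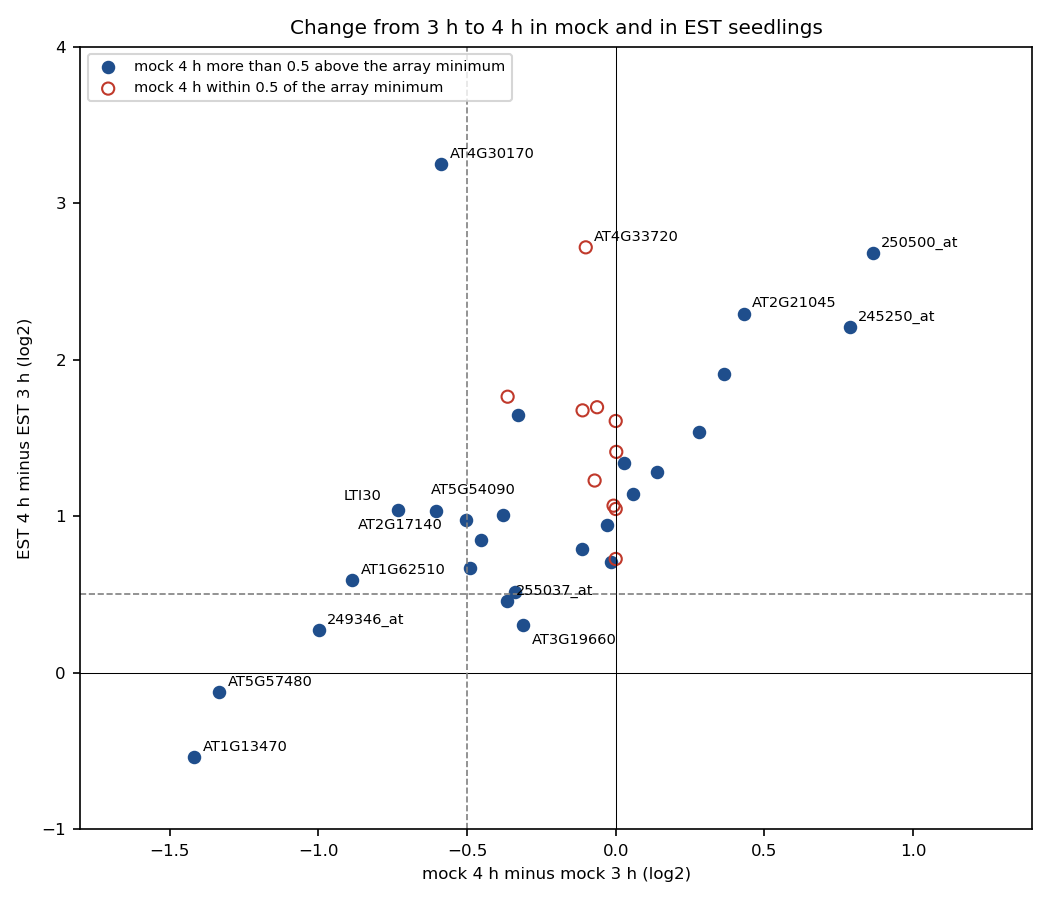
Difference between 4 h and 3 h in mock seedlings (horizontal axis, log2) and in EST seedlings (vertical axis, log2) for the 36 probe sets; dashed lines mark a mock step of -0.5 and an EST step of 0.5, and open circles are probe sets whose mock signal at 4 h lay within 0.5 of the array minimum. AT4G30170 has the largest EST step, 3.25, and AT1G13470 the lowest mock step, -1.42, with an EST step of -0.54.

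For 10 members the mock signal of 4 h was within 0.5 of the array minimum, against 35.7% of all probe sets, and the highest 4 h difference of all members was among them. AT4G33720 encodes a secreted protein of the family that includes the defence protein PR-1. In mock seedlings its signal was 2.25 at 3 h and 2.15 at 4 h, in EST seedlings 2.15 at 3 h and 4.87 at 4 h, and 2.15 on both leaf arrays. It was thus at or near the array minimum on 5 arrays, and the difference of 2.72 has no measured lower level. AT1G52070, a jacalin-related lectin, had 2.58 and 2.21 at 3 h, 2.21 and 3.98 at 4 h, and 2.15 and 2.18 in leaves, each pair given as mock and then EST, as for all pairs below. AT2G23540, a GDSL-type lipase, had 2.46 and 2.17 at 3 h, 2.39 and 3.40 at 4 h, and 2.15 on both leaf arrays. For these genes only the EST array of 4 h was clearly above the minimum. AT1G51090, of the heavy-metal-associated domain proteins, had 2.37 and 2.79 at 3 h, 2.37 and 3.51 at 4 h, and 2.63 and 2.81 in leaves. All 10 had an EST signal at least 0.5 higher at 4 h than at 3 h and a mock signal within 0.5 of that at 3 h. AT4G28085, described with the leaves, is the fifth of them with a gene. The other 5 are the unlisted 262325_at, 264567_s_at, 265572_at, 246526_at and 267565_at, with EST signals at 4 h of 4.00, 3.93, 3.76, 3.60 and 3.47. Of the 36 EST signals at 4 h, 18 were below 5 and 3 were at least 8. The median was 5.04, against 5.33 over all probe sets.

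A further 14 members stood more than 0.5 above the minimum in mock seedlings at 4 h and had a mock signal within 0.5 of that of 3 h. Only after EST were they at least 0.5 higher at 4 h than at 3 h. AT2G21045, which encodes an arsenate reductase, had 2.67 and 2.57 at 3 h, 3.10 and 4.87 at 4 h, and 2.33 and 2.60 in leaves. AT2G25735 had 4.32 and 4.21 at 3 h, 4.59 and 5.75 at 4 h, and 8.78 and 8.66 in leaves. Of the seedling arrays, the EST array of 4 h stood clearly above the other 3 for both genes. AT3G26590, a transporter of the MATE efflux family, had 5.51 and 5.71 at 3 h, 5.40 and 6.51 at 4 h, and 7.06 and 7.18 in leaves. AT3G04010, a glycosyl hydrolase of the family that includes beta-glucanases, had 3.79 and 4.06 at 3 h, 3.77 and 4.77 at 4 h, and 4.97 and 4.61 in leaves. Their mock signals at 4 h were within 0.5 of those at 3 h by a wide margin, with steps of -0.11 and -0.02. AT5G65520 had 2.46 and 2.65 at 3 h, 2.82 and 4.55 at 4 h, and 2.79 and 2.78 in leaves. The zinc finger family gene AT1G19200 had 3.31 and 3.49 at 3 h, 2.85 and 4.34 at 4 h, and 3.66 and 3.49 in leaves, and its mock step of -0.45 was close to the limit. AT3G51440, a strictosidine synthase-like protein, had 3.40 and 3.49 at 3 h, 2.91 and 4.16 at 4 h, and 8.55 and 8.01 in leaves, with a mock step of -0.49 that was closer still. The brightest unlisted probe sets of this kind were 261143_at, with 8.19 and 8.38 at 3 h and 8.17 and 9.33 at 4 h, and 260101_at, with 6.98 and 6.41 at 3 h and 6.65 and 8.06 at 4 h. The other 5 unlisted ones, 248964_at, 246390_at, 260438_at, 265067_at and 261873_at, had EST signals at 4 h of 4.34 to 6.75. Identical signals on more than 1 array occurred for AT1G19200 (3.49), 246390_at (3.83) and 248964_at (2.94). Whether these are measured levels was not tested.

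The 2 members without a step of 0.5 passed the rule through small movements of both arrays. AT3G19660, of unknown function, had 5.88 and 6.35 at 3 h, 5.57 and 6.65 at 4 h, and 7.49 and 7.43 in leaves. The unlisted 255037_at had 5.62 and 5.88 at 3 h, 5.26 and 6.34 at 4 h, and 8.23 and 8.08 in leaves. Both had already been higher after EST at 3 h, by 0.47 and 0.26, below the limit of 0.5.

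For the 2 members whose mock signal was higher at 4 h than at 3 h, the EST signal was higher still. The unlisted 250500_at had 2.60 and 2.71 at 3 h, 3.46 and 5.39 at 4 h, and 2.26 on both leaf arrays. The unlisted 245250_at had 4.45 and 4.84 at 3 h, 5.24 and 7.05 at 4 h, and 4.35 on both leaf arrays.

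For 8 members the mock signal at 4 h was lower than at 3 h. AT1G13470, of a protein family without a known function, had 6.32 and 6.47 at 3 h, 4.90 and 5.93 at 4 h, and 7.82 and 8.02 in leaves. Its EST signal at 4 h was thus lower than at 3 h, by 0.54, and its mock signal lower by 1.42. AT5G57480, an ATPase of the AAA type, had 5.96 on both arrays at 3 h, 4.63 and 5.84 at 4 h, and 7.12 and 6.89 in leaves. The unlisted 249346_at had 8.29 and 8.39 at 3 h, 7.29 and 8.66 at 4 h, and 12.17 and 11.61 in leaves. In these 3 the EST step was -0.54, -0.12 and 0.27, and set against the mock array of 3 h the EST difference at 4 h was -0.38 for AT1G13470, -0.13 for AT5G57480 and 0.37 for 249346_at. In the other 5 the EST signal was higher at 4 h as well. LTI30, a dehydrin that accumulates in cold and drought, had 5.32 and 5.13 at 3 h, 4.59 and 6.17 at 4 h, and 8.35 and 8.18 in leaves. AT1G62510, of the lipid-transfer protein superfamily, had 6.00 and 5.56 at 3 h, 5.11 and 6.15 at 4 h, and 11.44 and 11.24 in leaves, so that its EST signal at 4 h was only 0.16 above the mock of 3 h. The pentatricopeptide repeat gene AT2G17140 had 3.56 on both arrays at 3 h and on both leaf arrays, with 3.06 and 4.54 at 4 h. Its mock step was -0.50, at the limit. The 4 signals of 3.56 were identical, and whether they are a measured level was not tested. AT5G54090, which encodes a protein of the MutS type of DNA mismatch repair, had 5.27 and 4.69 at 3 h, 4.67 and 5.72 at 4 h, and 4.97 and 4.49 in leaves. With each array centred on the median of its values above the array minimum, which was 6.49 for mock at 3 h and 6.66 for mock at 4 h, the mock signal was lower for 14 members rather than 8. That centring lowered the 4 h minus 3 h difference between the mock arrays by a median of 0.16 among probe sets with a mean signal over 3.

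AT4G30170, a class III peroxidase of the kind that acts on cell walls, had the lowest 3 h difference of all members and is the last of the 8. The mock arrays of 3 h and 4 h gave 4.996 and 4.41, the EST arrays of the same times 3.10 and 6.35, and the leaf arrays 2.17 and 2.15. It was therefore 1.90 lower after EST at 3 h and 1.94 higher at 4 h, and the EST arrays alone differed by 3.25. The 2 mock arrays differed by 0.59. Of the other members, 260101_at and AT5G54090 were lower by more than 0.5 after EST at 3 h, with -0.56 and -0.59.

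**Figure D3:**
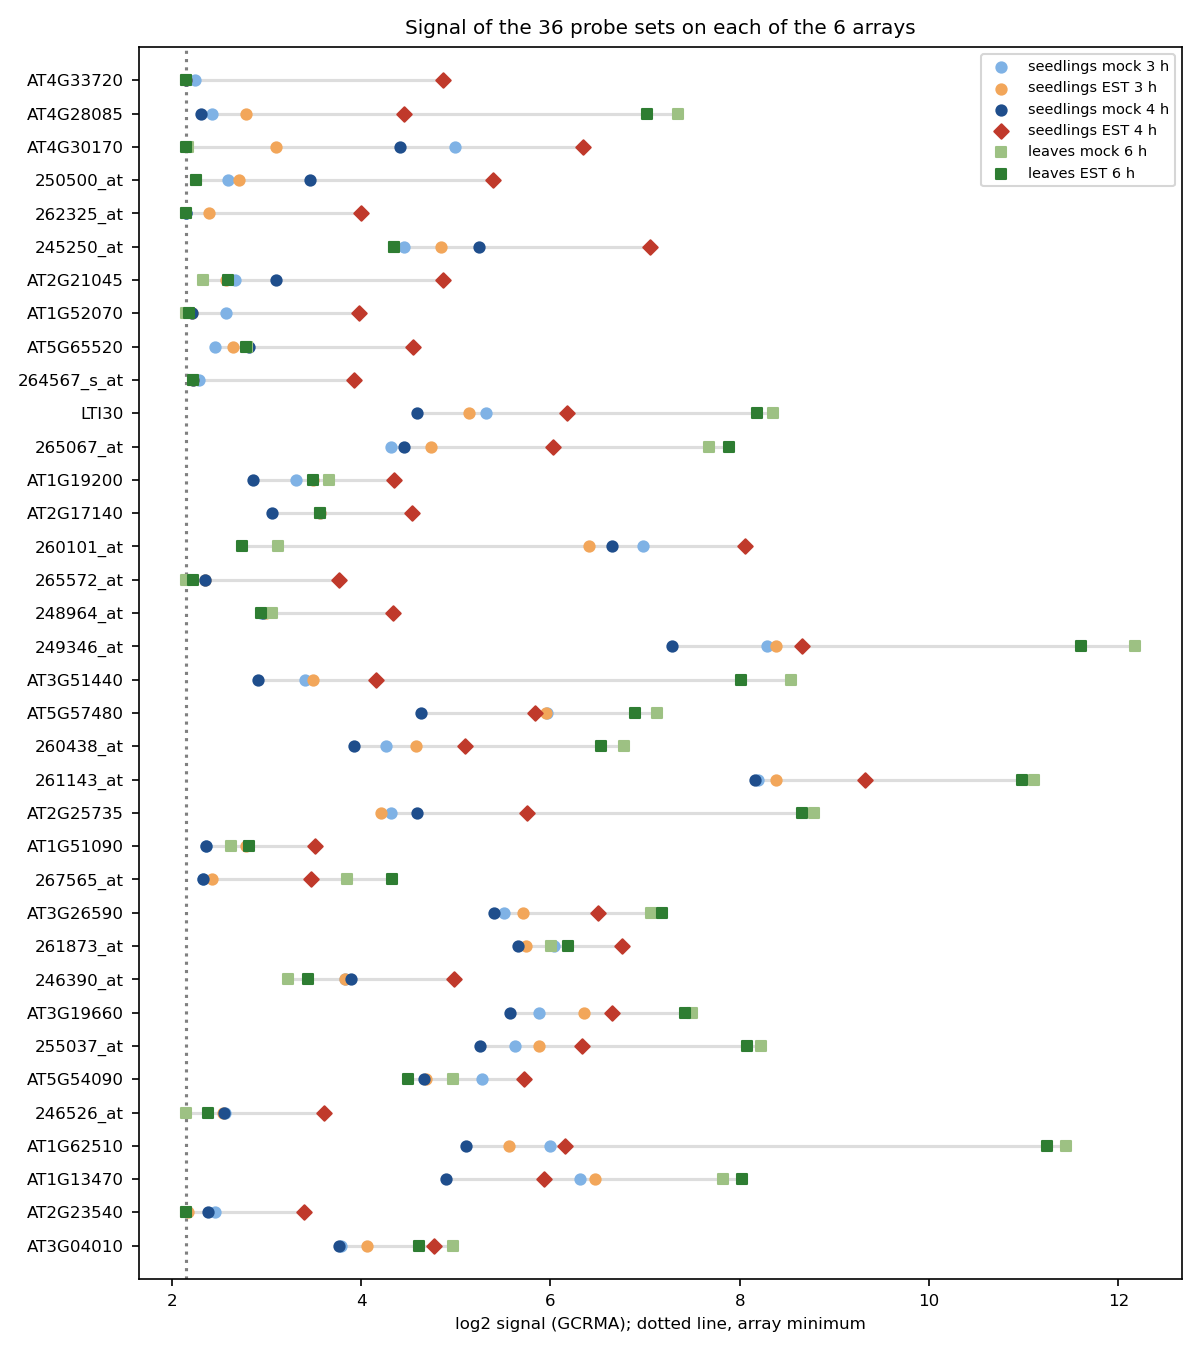
Log2 signal (horizontal axis) of each of the 36 probe sets on each of the 6 arrays, ordered by the 4 h difference between EST and mock; every point is 1 array, grey lines span the lowest to the highest signal, and the dotted line is the array minimum. EST at 4 h (diamonds) is the highest of the 4 seedling signals for 34 of the 36, and the leaf signals (squares) lie above it for many of the brighter probe sets and at the minimum for many of the dimmer ones.

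The rule did not use the difference between leaves and seedlings itself, which was tested across the arrays, but the selection shapes this test too. The fit in limma took all 6 arrays, 2 of leaves and 4 of seedlings, with EST against mock as an additive term, and p-values were adjusted over all 22746 probe sets by the Benjamini-Hochberg method. Of the 36 members 13 passed (37.2% of all probe sets did). In leaves 12 members were higher (33.3%, against 19.0% of all probe sets) and 1 was lower (2.78%, against 18.2% of all), while 23 did not pass. Every member had to reach a signal at least 1 above its own mock in seedlings at 4 h. A member at the minimum in leaves cannot go lower, so the 2 directions did not have equal room. The rule also required a 4 h difference between EST and mock unlike those at 3 h and in leaves. The additive term cannot fit this, so it enters the members' standard errors, and the high EST signal of 4 h enters their seedling means. The shares of members and of all probe sets are thus not like for like. AT1G62510 was higher in leaves by 5.64 (standard error 0.38, limma adjusted p = 0.00317, 0.0328 at most over the alternatives tried). AT3G51440 was higher by 4.79 (standard error 0.43, limma adjusted p = 0.00534, 0.0328 at most). AT4G28085, whose signals were 2.42 and 2.78 at 3 h, 2.31 and 4.46 at 4 h, and 7.34 and 7.02 in leaves, was higher by 4.19, AT2G25735 by 4.00 and LTI30 by 2.96 (limma adjusted p = 0.0220, 0.0138 and 0.0207, and 0.134, 0.105 and 0.138 at most over the alternatives). AT3G19660 and AT3G26590 were higher by 1.35 and 1.34, and the unlisted 249346_at, 265067_at, 261143_at, 255037_at and 260438_at by 2.19 to 3.73. For all of these 12, EST seedlings at 4 h had the third highest signal of the 6 arrays, below both leaf arrays and above the other 3 seedling arrays. The selection and the call together left little room for another order. The 1 member lower in leaves was the unlisted 260101_at, with leaf signals of 3.12 and 2.74 (difference -4.09, standard error 0.60, limma adjusted p = 0.0161, 0.111 at most). AT4G30170 differed by -2.55 with a standard error of 1.10 and did not pass. A member that did not pass may still differ, since the fit missed many simulated differences of 2. Of the members, 10 lay within 0.5 of the array minimum on both leaf arrays, against 35.0% of all probe sets, AT4G33720, AT4G30170, AT1G52070 and AT2G23540 among them.

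**Figure D4:**
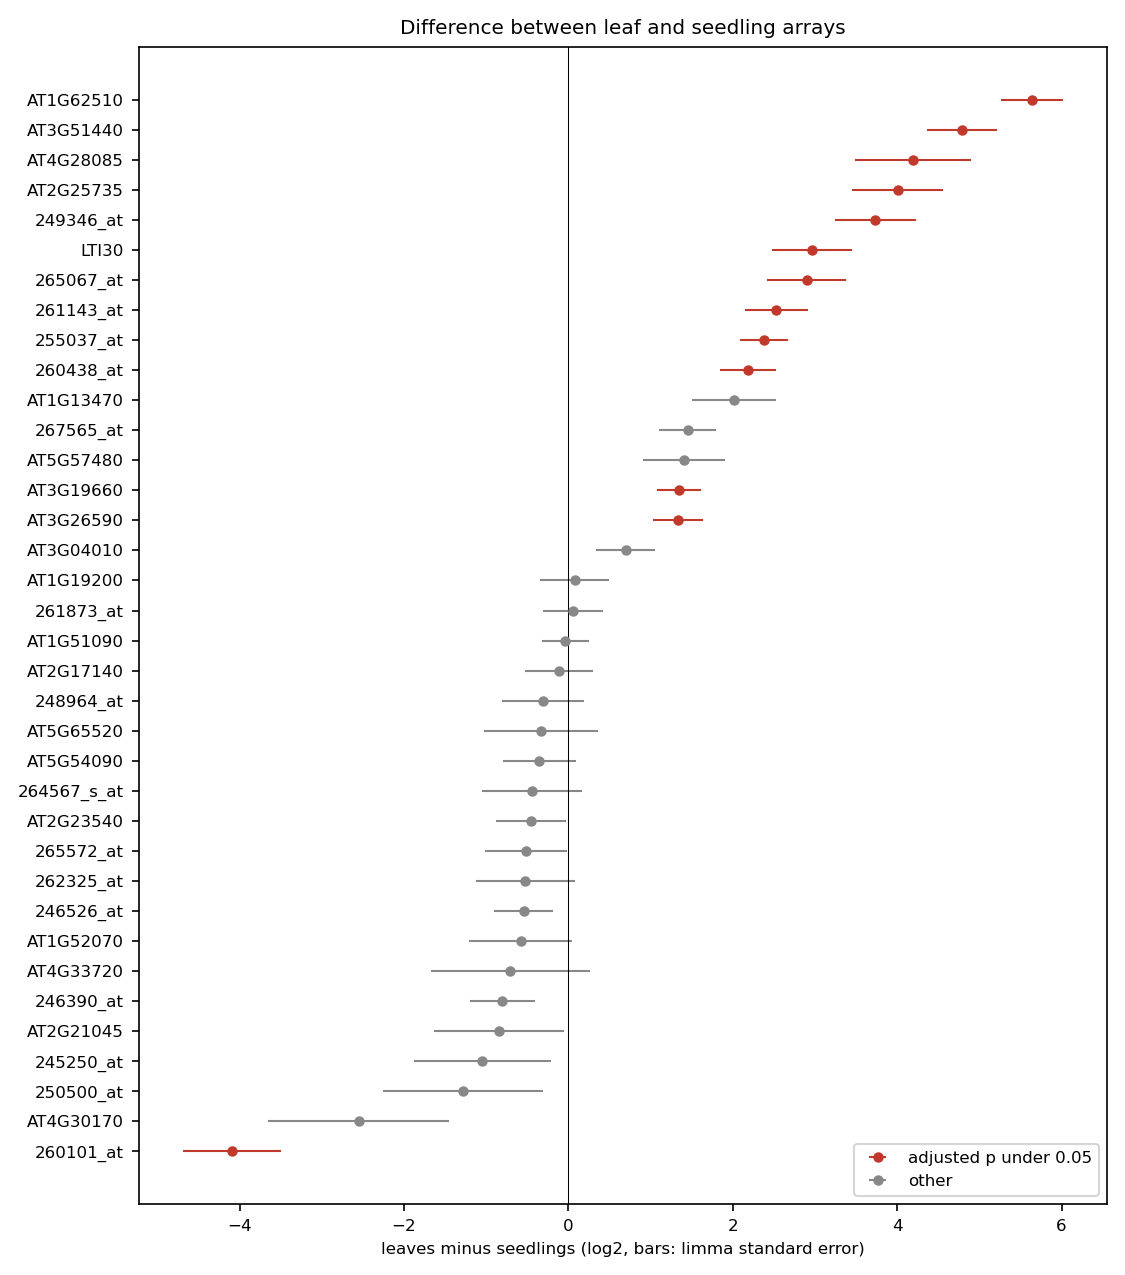
Leaves minus seedlings (log2, horizontal axis) for the 36 probe sets from limma across all 6 arrays, with EST against mock as a term; bars are the standard error of limma. The 12 probe sets that passed upward lie between 1.34 and 5.64, and 260101_at, at -4.09, is the only one that passed downward.

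These p-values measure the spread between single arrays of different treatments and times. Age, growth substrate, light regime and length of treatment differed together with the tissue, and in bulk samples fewer cells of a type and less RNA per cell cannot be told apart. The number of members called was 2 rather than 13 without the mock seedling array of 3 h. It was 4 without EST at 3 h, 5 without mock at 4 h and 15 without EST at 4 h. In this order, these fits called 3152, 3150, 2939 and 3191 of all 22746 probe sets higher in leaves. They called 3245, 3304, 2954 and 3068 lower. With all arrays 4318 were higher and 4151 lower. Leaving out a leaf array leaves only 1, so no count is given for those fits. The members lower in leaves were 3 rather than 1 without EST at 4 h, the array that the selection used, beside 12 higher. Centring on the median above the array minimum also gave 3 lower, with 15 higher, and AT4G30170 was 1 of these 3. Of all probe sets, the centring gave 5315 lower and 4804 higher. All 13 kept their direction in each of these fits and after the centring.

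Loci that lie next to the members were examined in TAIR10.1, since the rule did not use position. The 20 loci have 40 neighbours among protein-coding genes, of which 22 were paired with a probe set of their own. None of the 22 was at least 1 higher at 4 h, against 0.717% of all probe sets, and 2 were at least 0.5 higher. So few neighbours cannot be set against so small a share. Their median difference was 0, with a range from -0.91, for AT1G62500 beside AT1G62510, to 0.68. One of the 2 higher neighbours was AT1G52060, a jacalin-related lectin beside AT1G52070. It had 2.26 and 2.30 at 3 h, 2.18 and 2.86 at 4 h, and 2.26 on both leaf arrays. Another lectin of the same cluster, AT1G52050, had 2.59 and 3.10 at 4 h. The brighter jacalin-related lectins AT1G52000 and AT1G52100 did not go with them. AT1G52000 had 6.69 and 6.74 at 4 h, and AT1G52100 had 6.75 and 6.61. Whether related loci of this kind share probe signal was not tested. The second of the higher neighbours was AT3G04000, beside AT3G04010, and AT3G04000 was also 1.12 higher at 3 h and 1.04 higher in leaves. AT4G33710 and AT4G33730, PR-1-like genes on either side of AT4G33720, stood at the minimum on all 6 arrays.

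Relatives of 5 members were listed after the members' values were known, so their values are descriptions. Of 7 other dehydrins 3 had a probe set of their own, and their 4 h differences ran from 0 to 0.39. COR47, a dehydrin of the cold response, had 8.34 and 8.24 at 3 h, 8.72 and 9.12 at 4 h, and 10.95 and 10.68 in leaves, and unlike LTI30 its mock signal was higher at 4 h than at 3 h, by 0.38. Of 14 class III peroxidases 6 were measured, and 1 was at least 1 higher at 4 h. This was AT5G64100, with 4.99 and 6.31 at 3 h, 5.25 and 6.27 at 4 h, and 8.26 and 7.13 in leaves, and it was also higher at 3 h, by 1.33, where AT4G30170 was lower. The neighbour AT3G51450, a strictosidine synthase-like gene beside AT3G51440, differed by 0.00 at 4 h, with 7.43 on both arrays.

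The 16 members without a gene could not be looked up in the gene lists used for hormone, clock, iron and stress responses. None of these lists contained any of the 20 members paired with a gene. The annotation paired few of their genes with a probe set, 1 of 22 for the circadian clock, 1 of 14 for jasmonate, 1 of 13 for salicylic acid and defence, 2 of 17 for iron deficiency, 2 of 12 for heat shock, 4 of 24 for detoxification, 4 of 14 for touch and wounding and 5 of 12 for auxin. Only UGT73B4, GSTU25 and ZAT10 of these were at least 1 higher at 4 h (0.717% of all probe sets were), and each was higher at 3 h as well, by 1.64, 3.37 and 2.44. GI, the clock gene measured, was higher at 4 h than at 3 h by 0.66 in mock and by 0.58 in EST seedlings. PYK10, a beta-glucosidase abundant in roots, had signals between 12.06 and 12.28 on all 4 seedling arrays and of 2.17 on both leaf arrays. The other 5 measured root markers of 8 listed lay within 0.5 of the minimum on every array, and the summed root signal ran from 12.07 to 12.28 in seedlings on the log2 scale and was 4.74 in leaves. RCA, the activase of Rubisco and the only 1 of 7 leaf markers measured, had signals between 13.44 and 13.67 in seedlings and of 13.63 and 14.13 in leaves. The summed root signal of EST seedlings at 4 h was 12.07, against 12.08 in mock seedlings at 4 h.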

How the data were processed

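Each of the 6 RNA samples, 1 per condition, was hybridised to an Affymetrix ATH1 array. The authors deposited 1 log2 signal for each of 22810 probe sets, normalized between arrays with GCRMA, whose version is not given in the sources used here. The values were used as deposited without the AFFX controls. The number of arrays limits the precision. Genes were taken from the platform annotation (13513 probe sets with 1 gene, 503 with several, 8730 unlisted) and matched to TAIR10.1 by gene ID or locus, and for a locus with several probe sets in a list the brightest was used. Members and gene lists were chosen with earlier results of these data known. All members paired with 1 gene were named. Differences between EST and mock are differences of single arrays without a test. Leaves and seedlings were compared in limma 3.58.1 (R 4.3.3) with Benjamini-Hochberg adjustment at 0.05, tested on simulated data. There the fit recovered 23.75% of simulated differences of 1 on the log2 scale, 42.5% of those of 2 and 70% of those of 4. A member that did not pass may thus still differ between tissues. Alternatives were quantile normalization, centring each array on the median of its values above its minimum, a mean signal of at least 6, probe sets with 1 gene, other thresholds, other mock arrays, other limma settings, the time-matched pair as a random block and each array left out. Promoter and probe sequences were not analysed here. Python 3.11.15 and matplotlib 3.10.9 made the figures.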

Additional observations from a re-analysis of the deposited data

Results flagged for a closer look

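Members that moved by at least 0.5 in the other direction after EST in another pair of arrays were looked at again. With 1 array per condition these differences between time points or tissues were not tested. AT4G30170, the peroxidase, was higher by 1.94 at 4 h and had -1.90 at 3 h. The unlisted 260101_at was higher by 1.41 at 4 h and had -0.56 at 3 h, and AT5G54090 was higher by 1.05 at 4 h and had -0.59 at 3 h. In leaves at 6 h, 249346_at had -0.56 and AT3G51440 had -0.54, against 1.37 and 1.24 in seedlings at 4 h.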

How the results depend on the processing

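Quantile normalization gave 36 probe sets by the same rule, of which 32 were members, and centring each array on the median of its values above the array minimum gave 33, of which 30 were. The rule found 79 probe sets with a 4 h threshold of 0.8 and 12 with 1.5. Of the members, 20 were paired with 1 gene and 11 had a mean signal of at least 6. With the mean of both mock seedling arrays as control it found 39, of which 25 were members, and with exchanged mock arrays 157, of which 20 were. The mock signal was lower at 4 h than at 3 h for 14 members after centring and for 5 of the 11 with a mean signal of at least 6. It was lower for 16 members at a limit of 0.3 and for 2 at a limit of 1. The EST signal was higher for 6 of the 11 members with a mean signal of at least 6 and for 17 of the 20 paired with 1 gene. Against the mock array of 3 h, a comparison chosen after the data had been seen, AT5G57480 differed by -0.13 and AT1G13470 by -0.38. Between leaves and seedlings, 6 of the 20 members with 1 gene were called, all higher in leaves. Of the 13513 probe sets with 1 gene, 2289 were higher and 2112 lower. At an adjusted p of 0.01, 2 members were called, both higher, against 2425 higher and 2540 lower of all 22746. Leaving out each seedling array in turn gave 2 to 15 members called. Lower in leaves were 3 members after centring, which called 18 in all, and 3 without EST at 4 h, against 1 with the values as deposited. Over all probe sets, 5315 were lower after centring, 3068 without EST at 4 h and 4151 with the values as deposited. The labels give no replicate numbers, but EST and mock arrays are matched by time. EST was not tested against mock over these 3 pairs, because the members were selected on the same 3 differences. The time-matched pair as a random block in the comparison of tissues was an alternative chosen after the data had been seen. With it 14 members were called, all 13 called in the main fit included. Of all probe sets, it called 4555 higher in leaves and 4402 lower.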
